A study of Mus musculus with 21 samples.

Results

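Binding of 2 splicing factors to the RNA of 4 genes of the pluripotent state, Pou5f1, Sox2, Lin28a and Dnmt3b, was described in subcellular fractions of P19 cells, a mouse embryonal carcinoma line. The genes were chosen by name, and each was read as a fixed interval on 1 strand of build mm9. They are 4 genes among 34919 loci that result when the positions of all lists are joined at gaps of up to 10 kb, and they held 3576 of 3232078 listed cDNAs, or 0.111%. Fractionation iCLIP links a protein to RNA with ultraviolet light, and the start of each cDNA marks the linked nucleotide. The cells carried an SRSF3-GFP fusion or an SRSF7-GFP fusion, received 100 mJ/cm2 of light of 254 nm and were separated into chromatin, nucleoplasm and cytoplasm. The 6 groups were SRSF3 chromatin, SRSF3 nucleoplasm and SRSF3 cytoplasm with 4 replicates each, and SRSF7 chromatin, SRSF7 nucleoplasm and SRSF7 cytoplasm with 3 replicates each. No other treatment and no cells without a fusion are among the samples, and the sources used here do not name the promoter of the fusions or say whether a line is 1 clone.

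SRSF3 and SRSF7 are SR proteins, which bind pre-mRNA while it is made, act in the choice of splice sites and can travel with the mRNA to the cytoplasm as adapters of export. A transcript found at chromatin is largely nascent and still holds introns, whereas cytoplasmic RNA is mostly spliced. Pou5f1 (also called Oct4) and Sox2 encode transcription factors that act together at the core of the pluripotency network. Lin28a encodes an RNA-binding protein known for blocking the maturation of let-7 microRNAs and for binding many mRNAs. Dnmt3b encodes a de novo DNA methyltransferase that is abundant in pluripotent cells.

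Replicates had been pooled by the authors, so each value below is 1 pooled count with no spread between replicates, and no p-value is given. Listed totals were 1768665 cDNAs in SRSF3 chromatin and between 248498 and 367298 in the other 5 lists. SRSF3 chromatin was thus by far the deepest list, and a weakly bound position could enter it more easily. Shares are given as cDNAs per 100000 listed, with exact 95% Clopper-Pearson intervals that cover counting error only. They also depend on what else a list holds. Without the mitochondrial genome and the 10 highest other loci, 84.4% of cDNAs remain in SRSF3 chromatin and 51.9% in SRSF3 cytoplasm. A lower share because less of the RNA was in a fraction and a lower share because fewer of its molecules were bound cannot be told apart. A gene absent from a list is called not listed, since the lists hold only positions that passed the authors' threshold.

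Pou5f1 (NCBI gene 18999) was read on the plus strand at chr17:35642900-35648000, Sox2 (20674) on the plus strand at chr3:34548800-34551600, Lin28a (83557) on the minus strand at chr4:133559000-133575000 and Dnmt3b (13436) on the plus strand at chr2:153475000-153514000. The opposite strand of the 4 intervals held 0 positions in all 6 lists. The 5000 nt upstream of the intervals held 6 cDNAs over the 6 lists and 4 genes, and the 5000 nt downstream held 138. Downstream cDNAs numbered 52 at Pou5f1, 17 at Sox2, 45 at Lin28a and 24 at Dnmt3b, and their transcripts of origin were not assigned. In RefSeq's GRCm38.p6 gene table the neighbour after Pou5f1 is Tcf19, and Sox2 lies inside the long noncoding gene Sox2ot, so cDNAs in the Sox2 interval may belong to either. The same table lists 7 pseudogenes related to Pou5f1. The sources used here do not say how reads matching several copies were placed, so Pou5f1 counts are uncertain. No exon, intron or UTR is assigned to any position, because no mm9 annotation was used here.

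The 4 genes differed widely in how much binding was listed. Dnmt3b held 2897 cDNAs over the 6 lists, Lin28a 557, Pou5f1 89 and Sox2 33. Dnmt3b therefore made up 81.0% of the members' cDNAs. It is also the longest interval, with 39.0 kb against 16.0 kb for Lin28a, 5.10 kb for Pou5f1 and 2.80 kb for Sox2. Per kb of interval and per 1000000 listed cDNAs, SRSF3 chromatin held 36.8 cDNAs at Dnmt3b, 7.28 at Lin28a, 4.99 at Pou5f1 and 4.85 at Sox2. In SRSF7 cytoplasm the order per kb was another one, with 35.6 at Lin28a, 15.5 at Pou5f1, 8.75 at Sox2 and 3.42 at Dnmt3b. Dnmt3b thus had the highest density of the 4 in SRSF3 chromatin and the lowest in SRSF7 cytoplasm. These densities divide by the whole genomic interval, any introns included, although cytoplasmic RNA is mostly spliced. The part of introns in either order was not tested, and the Sox2 value in SRSF7 cytoplasm rests on 9 cDNAs.

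**Figure D1:**
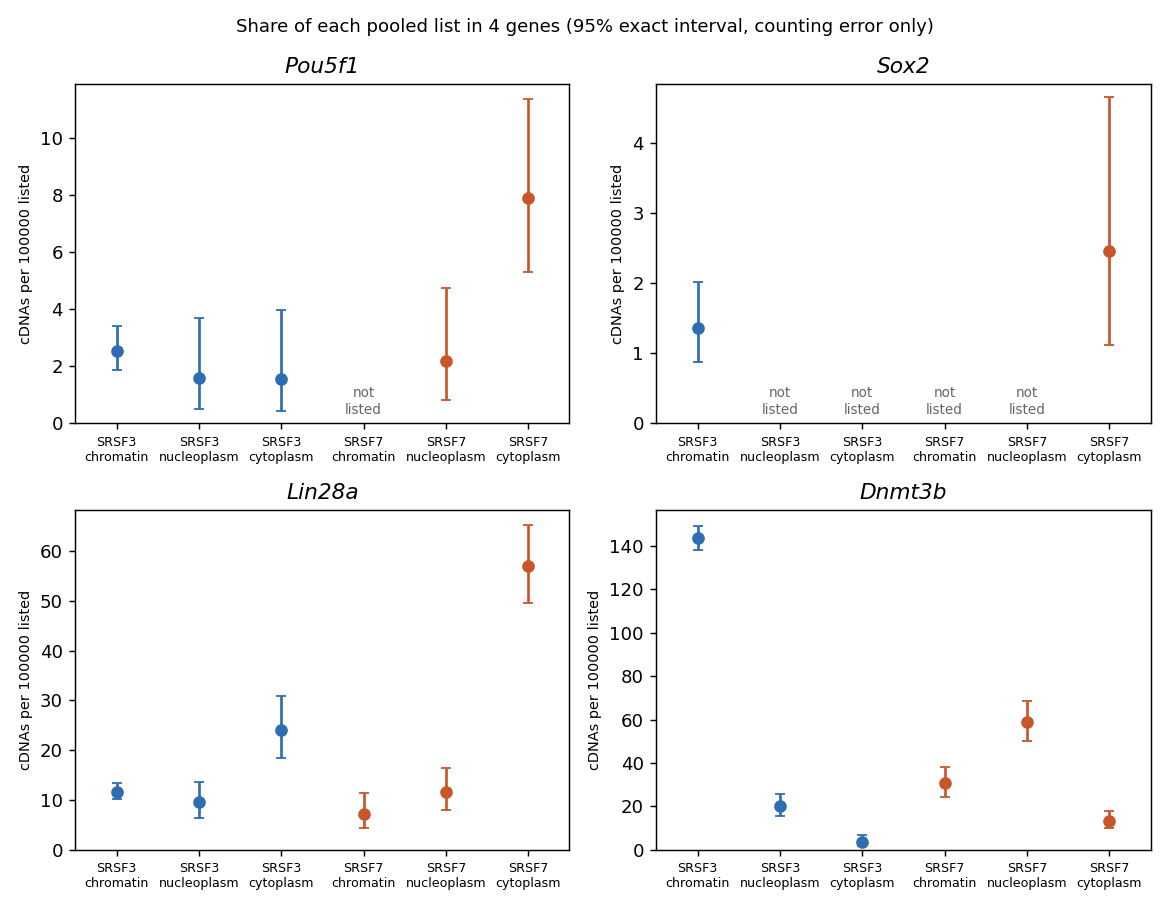
Share of each pooled list in Pou5f1, Sox2, Lin28a and Dnmt3b, as cDNAs per 100000 listed on a y axis of its own for each gene. Points are pooled values, bars are exact 95% intervals of counting error, and lists without a position are marked as not listed. Lin28a peaks at 56.9 in SRSF7 cytoplasm and Dnmt3b at 143 in SRSF3 chromatin.

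Of the transcription factor genes, Pou5f1 was listed in 5 of 6 lists at low counts. SRSF3 had 45 cDNAs at Pou5f1 in its chromatin list, 5 in the nucleoplasm list and 4 in the cytoplasm list. As shares these were 2.54 per 100000 (1.86 to 3.40), 1.58 (0.515 to 3.70) and 1.56 (0.424 to 3.98), so the 3 intervals overlapped. SRSF7 had no listed position at Pou5f1 in chromatin, 6 cDNAs in nucleoplasm and 29 in cytoplasm. The share in SRSF7 cytoplasm was 7.89 per 100000 (5.29 to 11.3), against 2.18 (0.801 to 4.75) in SRSF7 nucleoplasm, and these intervals did not overlap. SRSF3 cytoplasm held 0.197 of the SRSF7 cytoplasm share (0.0503 to 0.561), a ratio that rests on 4 SRSF3 cDNAs. After scaling each list to its total, cytoplasm took 78.3% of the SRSF7 signal at Pou5f1 and 27.4% of the SRSF3 signal.

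Along Pou5f1 some places were listed for both proteins and others for 1 of them. In cytoplasm all 3 SRSF3 positions lay within 5 nt of an SRSF7 position, against 2 of the 26 SRSF7 positions near an SRSF3 position. A group of positions 85 to 108 nt from the 5′ end of the interval, at chr17:35642985-35643008, held 8 cDNAs in SRSF3 chromatin, 4 of the 5 in SRSF3 nucleoplasm, all 4 in SRSF3 cytoplasm and 3 in SRSF7 cytoplasm. It was the only one of the 9 clusters of Pou5f1 listed in all 3 SRSF3 fractions. Here and below a cluster joins the positions of all 6 lists at gaps of up to 30 nt. In SRSF7 nucleoplasm 5 of 6 cDNAs lay 4368 to 4408 nt from the 5′ end, at chr17:35647268-35647308, where SRSF7 cytoplasm had 8 and no SRSF3 list had any. The cluster with the highest mean share, at chr17:35646370-35646423, held 13 cDNAs in SRSF3 chromatin, 1 in SRSF7 nucleoplasm and 4 in SRSF7 cytoplasm. A cluster of 14 nt at chr17:35644919-35644932 held 13 cDNAs in SRSF3 chromatin and none in any other list. The cluster at chr17:35643288-35643317 held 6 cDNAs in SRSF7 cytoplasm and none in the other lists.

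Sox2 was listed in 2 of 6 lists. SRSF3 had 24 cDNAs over 17 positions in chromatin and SRSF7 had 9 over 8 positions in cytoplasm. These were 1.36 per 100000 (0.869 to 2.02) of SRSF3 chromatin and 2.45 (1.12 to 4.65) of SRSF7 cytoplasm. Both lists met at 1 cluster of 19 nt, at chr3:34550620-34550638, which held 14 of the 24 SRSF3 cDNAs and 7 of the 9 SRSF7 cDNAs. A cluster near the 5′ end, at chr3:34548937-34548949, held 9 cDNAs in SRSF3 chromatin and none in SRSF7 cytoplasm. The other clusters held 1 cDNA of SRSF3 chromatin at chr3:34551447 and 2 of SRSF7 cytoplasm at chr3:34549666-34549667.

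**Figure D2:**
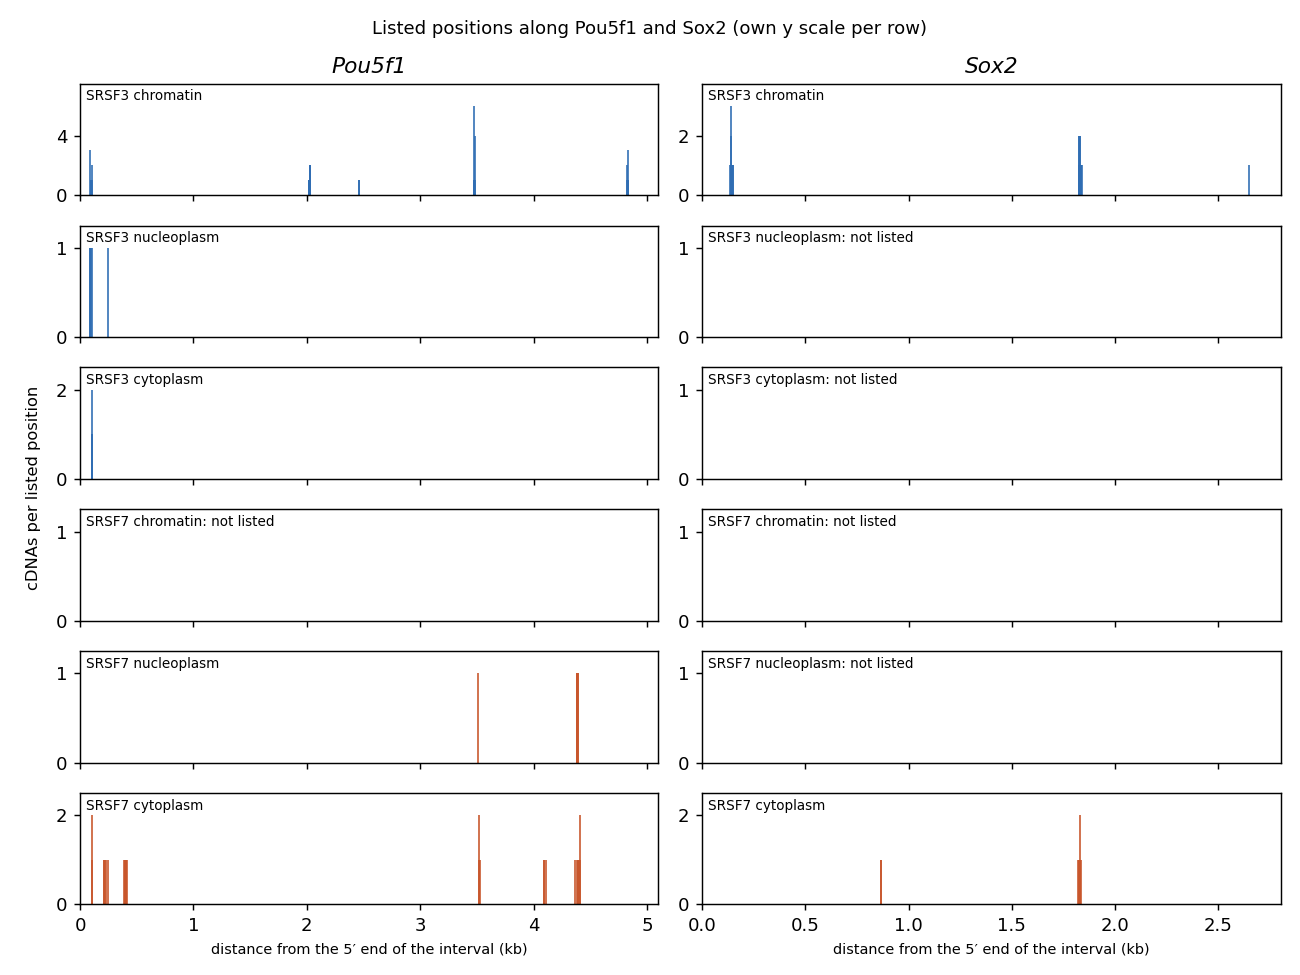
cDNAs per listed position against the distance from the 5′ end of the Pou5f1 and Sox2 intervals in kb, with 1 row per pooled list and a y scale of its own in each row. In SRSF3 nucleoplasm and SRSF3 cytoplasm all Pou5f1 positions lie within 244 nt of the 5′ end, while those of SRSF7 nucleoplasm begin at 3506 nt.

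Lin28a, the RNA-binding protein gene, was listed in all 6 lists, and its share was highest in cytoplasm for both proteins. Chromatin held 206 SRSF3 cDNAs, nucleoplasm 30 and cytoplasm 62. The SRSF3 shares in this order were 11.6 per 100000 (10.1 to 13.3), 9.51 (6.42 to 13.6) and 24.1 (18.5 to 30.9). SRSF7 had 18, 32 and 209 cDNAs in the same order. Its shares were 7.24 per 100000 (4.29 to 11.4), 11.6 (7.96 to 16.4) and 56.9 (49.5 to 65.2). In either protein the cytoplasm interval lay above those of chromatin and nucleoplasm, which overlapped each other. After scaling each list to its total, cytoplasm held 75.1% of the SRSF7 signal at Lin28a and 53.3% of the SRSF3 signal.

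Binding along Lin28a was concentrated toward the 3′ end, most of all outside chromatin. Of 5 equal parts of the interval, the 3′-most one of 3200 nt held 42.2% of the SRSF3 chromatin cDNAs of Lin28a (35.4 to 49.3), 100% of those in SRSF3 nucleoplasm (88.4 to 100) and 100% of those in SRSF3 cytoplasm (94.2 to 100). For SRSF7 the values in the same order were 61.1% (35.8 to 82.7), 84.4% (67.2 to 94.7) and 91.4% (86.7 to 94.8). The stretch between the 5′-most and the 3′-most of these parts held 49.5% of the SRSF3 cDNAs in chromatin, none in SRSF3 nucleoplasm or cytoplasm, and 6.70% in SRSF7 cytoplasm. SRSF3 chromatin was the list whose positions reached the greatest part of the Lin28a interval, 7 of 10 equal parts. SRSF7 cytoplasm reached 5 of the 10 parts and the other 4 lists 2 or 3. SRSF3 chromatin held 206 cDNAs here and SRSF7 cytoplasm 209, against 18 to 62 in the other 4 lists. The part of these counts and of list depth in the number of parts reached was not tested.

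Single sites of Lin28a were listed in different sets of lists. Lin28a has only 18 cDNAs in SRSF7 chromatin, 30 in SRSF3 nucleoplasm and 32 in SRSF7 nucleoplasm. Absence of a cluster from these lists cannot be told apart from sparse counts. The tallest position, at chr4:133574068, lay 932 nt from the 5′ end and held 13 cDNAs in SRSF3 chromatin, 4 in SRSF7 chromatin, 2 in SRSF7 cytoplasm and none in the other 3 lists. It was the highest Lin28a position of both chromatin lists. A cluster of 117 nt at chr4:133560739-133560855 was the only one of 31 listed in all 6 lists, with 24, 7 and 21 cDNAs in SRSF3 and 4, 4 and 33 in SRSF7, each in the order chromatin, nucleoplasm and cytoplasm. The neighbouring cluster at chr4:133560214-133560357 held 43 cDNAs in SRSF3 chromatin, 17 in SRSF3 cytoplasm, 12 in SRSF7 nucleoplasm and 35 in SRSF7 cytoplasm. It had none in SRSF3 nucleoplasm or SRSF7 chromatin. The cluster at chr4:133561037-133561105 held 4 cDNAs in SRSF3 nucleoplasm, 16 in SRSF3 cytoplasm, 7 in SRSF7 chromatin and 14 in SRSF7 cytoplasm, and none in SRSF3 chromatin or SRSF7 nucleoplasm. Its 7 cDNAs were 38.9% of those of Lin28a in SRSF7 chromatin. Near the 3′ end of the interval, chr4:133559285-133559321 held 10 cDNAs in SRSF3 nucleoplasm, 6 in SRSF7 nucleoplasm and 11 in SRSF7 cytoplasm, and none in either chromatin list. The same held at chr4:133559712-133559736, with 9 cDNAs in SRSF3 nucleoplasm and 7 in SRSF7 cytoplasm.

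**Figure D3:**
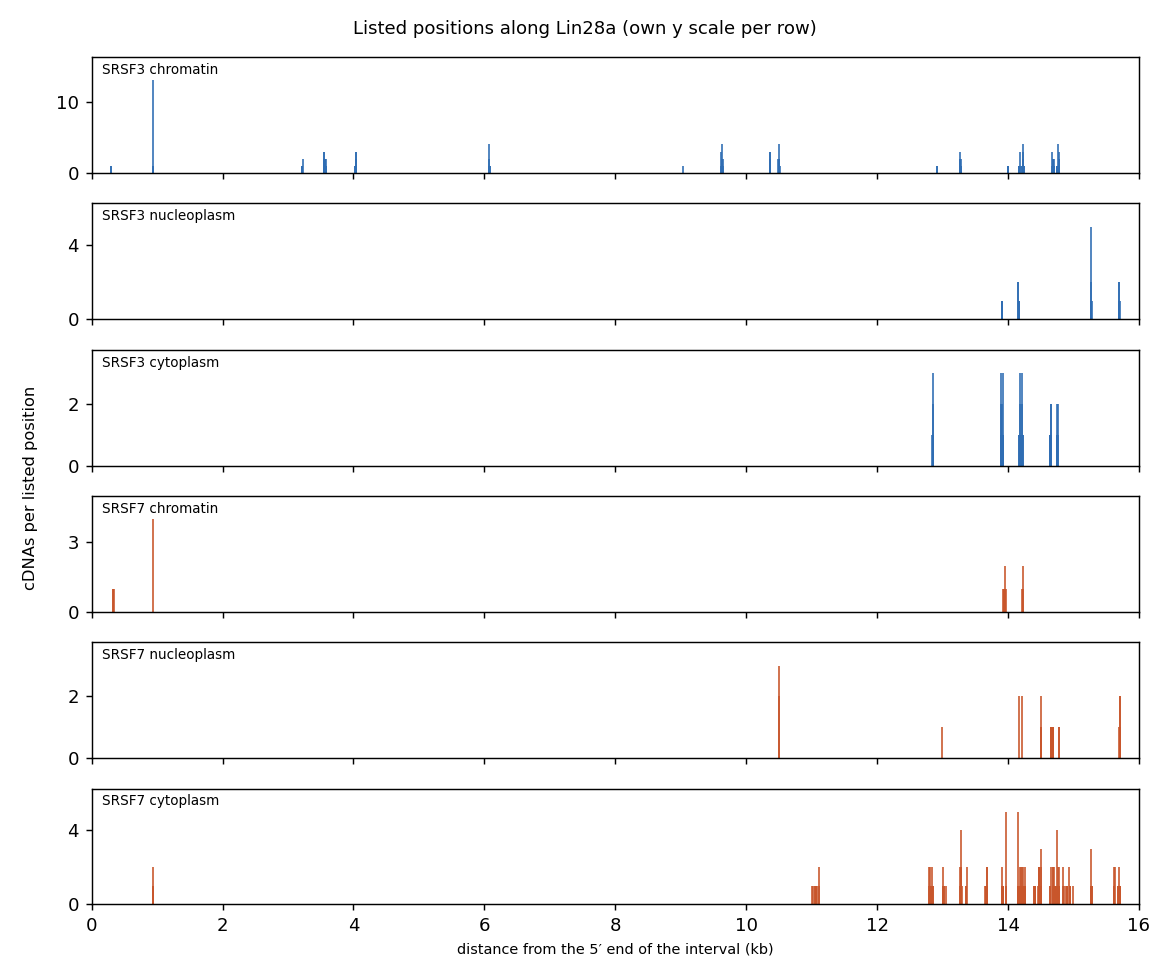
cDNAs per listed position against the distance from the 5′ end of the Lin28a interval in kb, with 1 row per pooled list and a y scale of its own in each row. SRSF3 nucleoplasm and SRSF3 cytoplasm have positions only in the 3′-most 3200 nt, whereas SRSF3 chromatin has 64 of its 130 positions between the 3200 nt at either end.

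Dnmt3b, the DNA methyltransferase gene, showed another order of fractions. Chromatin held 2537 SRSF3 cDNAs over 1295 positions, nucleoplasm 64 over 38 and cytoplasm 9 over 7. The SRSF3 shares in this order were 143 per 100000 (138 to 149), 20.3 (15.6 to 25.9) and 3.50 (1.60 to 6.64), so each fraction lay below the one before it with no overlap of intervals. For SRSF7 the counts were 76, 162 and 49 cDNAs. Its shares were 30.6 per 100000 (24.1 to 38.3), 58.9 (50.2 to 68.7) and 13.3 (9.87 to 17.6), so nucleoplasm was highest and cytoplasm lowest, again with no overlap. After scaling each list to its total, chromatin took 85.8% of the SRSF3 signal at Dnmt3b, and nucleoplasm took 57.3% of the SRSF7 signal.

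Along Dnmt3b, SRSF3 chromatin was spread over the whole interval, with positions in all 10 equal parts. The fewest cDNAs lay in the third of these parts (72) and the most in the sixth (471). The 2 highest positions held 21 of the 2537 cDNAs each, or 0.828%, and 277 positions were needed to reach 50% of them. SRSF7 chromatin and SRSF7 nucleoplasm each had positions in 7 of the 10 parts, SRSF3 nucleoplasm in 5, SRSF7 cytoplasm in 4 and SRSF3 cytoplasm in 2. The part of list depth in these numbers was not tested. The 3′-most 7800 nt, again 1 of 5 equal parts, held 13.0% of the SRSF3 chromatin cDNAs (11.8 to 14.4), 31.2% of those in SRSF3 nucleoplasm (20.2 to 44.1) and 8 of 9 in SRSF3 cytoplasm. For SRSF7 it held 19 of 76 cDNAs in chromatin, 13.0% in nucleoplasm (8.21 to 19.1) and 59.2% in cytoplasm (44.2 to 73.0). At Dnmt3b as at Lin28a, the cytoplasm list of either protein had the larger part of its cDNAs in this 3′-most part.

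Particular sites of Dnmt3b were shared by few lists. Of 128 clusters, 83 were listed in SRSF3 chromatin alone, and 4 were listed in at least 4 lists. None was in all 6, and 3 were in all 3 SRSF7 fractions. SRSF3 chromatin supplied 1295 of the 1581 listed positions at Dnmt3b, and 870234 of 1387615 over all loci. The matching share over all clusters of the series was not computed, so these counts are not read as particular to Dnmt3b. A cluster of 77 nt near the 3′ end, at chr2:153513264-153513340, held 48 cDNAs in SRSF3 chromatin and 8 in SRSF3 cytoplasm, and 7, 6 and 8 in SRSF7 chromatin, nucleoplasm and cytoplasm. It had none in SRSF3 nucleoplasm, where the cluster next to it, at chr2:153513389-153513428, held 19 cDNAs, the most of any Dnmt3b cluster in that list. That neighbour held 29 cDNAs in SRSF3 chromatin, 1 in SRSF7 cytoplasm and none in the other 3 lists. At the 5′ end, chr2:153475220-153475238 held 5 cDNAs in SRSF3 chromatin, 15 in SRSF3 nucleoplasm and 1 in SRSF3 cytoplasm, and none in any SRSF7 list. It was the only Dnmt3b cluster in all 3 SRSF3 fractions, and it held 23.4% of SRSF3 nucleoplasm cDNAs of the gene against 0.197% of SRSF3 chromatin cDNAs. A cluster of 162 nt at chr2:153491628-153491789 held 139 cDNAs in SRSF3 chromatin, 3 in SRSF3 nucleoplasm, 3 in SRSF7 chromatin, 16 in SRSF7 nucleoplasm and 1 in SRSF7 cytoplasm. The cluster at chr2:153487231-153487292 held 33 cDNAs in SRSF3 chromatin, 14 in SRSF3 nucleoplasm and 7 in SRSF7 nucleoplasm. The highest SRSF7 chromatin position, at chr2:153496943 with 3 cDNAs, was also 1 of the 3 highest of SRSF7 nucleoplasm, with 4.

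**Figure D4:**
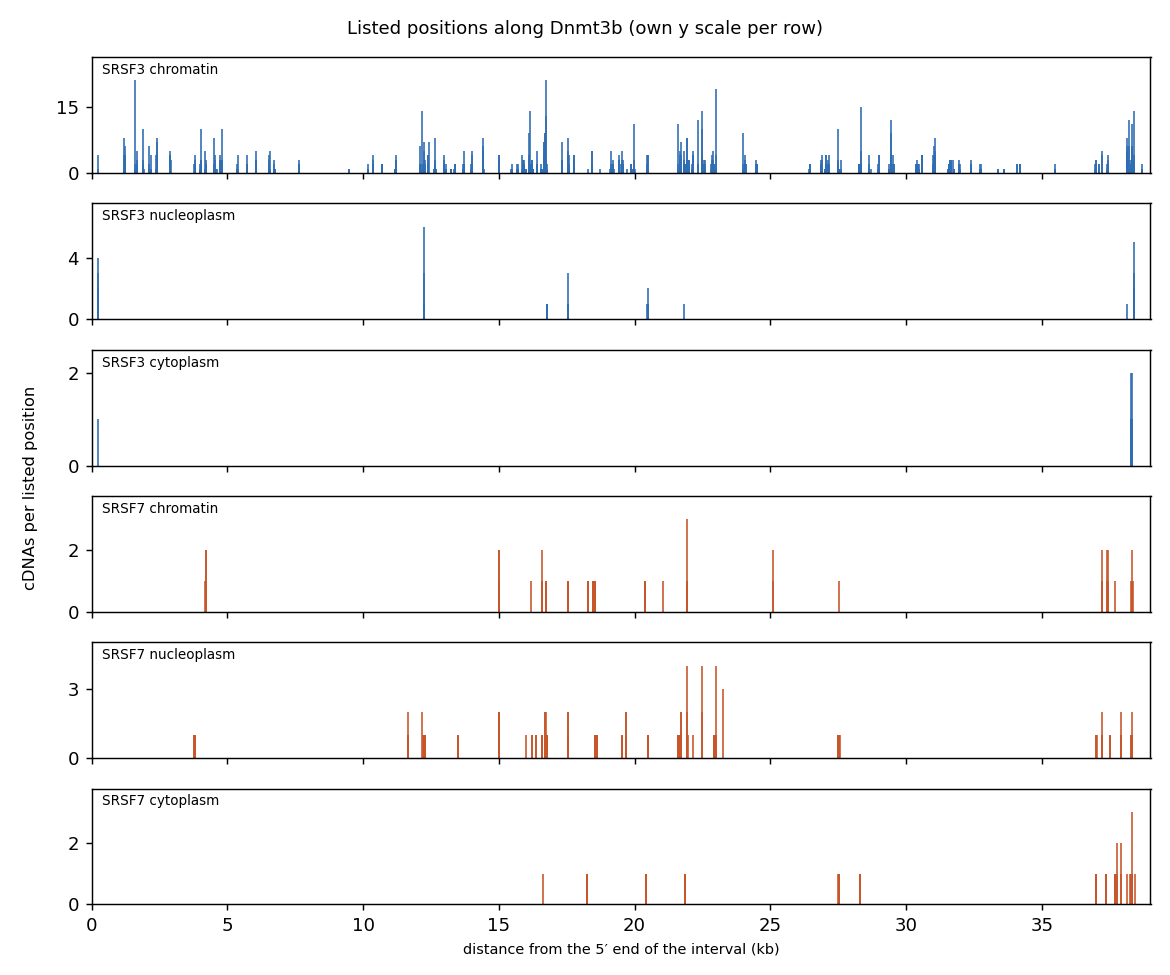
cDNAs per listed position against the distance from the 5′ end of the Dnmt3b interval in kb, with 1 row per pooled list and a y scale of its own in each row. SRSF3 chromatin has 1295 positions over all 10 parts of the interval, and the cytoplasm lists have 7 (SRSF3) and 45 (SRSF7).

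Ratios of shares between fractions were set beside those of all loci. A gene or locus was compared with at least 50 cDNAs in both lists together and at least 10 in each, and was called when the whole 95% conditional exact binomial interval of its ratio lay beyond 2-fold. Pou5f1 and Sox2 did not reach these minimums in any of the 9 comparisons, so the calls concern Lin28a and Dnmt3b. They gave 15 compared values, of which 3 were called higher, 3 lower and 9 not called. Over all loci, 25.2% to 58.8% were called in either direction, depending on the comparison. The count is therefore not read as particular to these genes. The units differ, since a gene is its fixed interval and a locus joins positions at gaps of up to 10 kb. The locus around Lin28a spans 57153 nt. In chromatin, nucleoplasm and cytoplasm it holds 488, 39 and 67 SRSF3 cDNAs, against 206, 30 and 62 in the interval. For SRSF7 it holds 25, 83 and 217, against 18, 32 and 209. The Lin28a ratios and calls below are those of the interval only. Against cytoplasm, the locus holds relatively more chromatin and nucleoplasm cDNAs of both proteins, so its ratios over cytoplasm stand higher than those of the interval. Calls for that locus are not given here, so the percentages of loci are not a like-for-like background for Lin28a. The locus around Dnmt3b has counts near those of its interval.

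In SRSF3, chromatin over nucleoplasm gave a log2 ratio of 2.82 at Dnmt3b (2.46 to 3.20), a 7.07-fold higher share in chromatin, and 0.29 at Lin28a (-0.26 to 0.90). Dnmt3b was called higher, 1 of 2 genes compared, where 17.2% of 1778 loci were called higher and the median locus stood at -0.37. The call held in the 4 alternative settings, with log2 ratios between 2.10 and 3.46. In chromatin over cytoplasm Lin28a stood at -1.05 (-1.47 to -0.62) and was not called, beside a median locus of -0.74 and 58.8% of 1050 loci called in either direction. With only positions of at least 3 cDNAs that value was 0.13, from 69 and 15 cDNAs. Dnmt3b had 9 cDNAs in SRSF3 cytoplasm and was below the minimum. Its log2 ratio was 5.36 (4.43 to 6.49), or 3.64 with positions counted instead. It has no place among the loci compared, which all hold at least 10 cDNAs in SRSF3 cytoplasm. In nucleoplasm over cytoplasm Lin28a stood at -1.34 (-2.02 to -0.69), not called, beside a median of 0.30 and 25.2% of 921 loci called in either direction, 16.8% higher and 8.36% lower. It passed the threshold, at -1.93, when positions were counted. Dnmt3b, below the minimum, stood at 2.54 (1.52 to 3.73).

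In SRSF7, chromatin over nucleoplasm gave -0.95 at Dnmt3b (-1.36 to -0.54) and -0.68 at Lin28a (-1.60 to 0.19). Neither gene was called, where 35.7% of 915 loci were called in either direction and the median locus stood at -0.73. Both genes thus lay close to the median locus. The Dnmt3b value was -0.27 with positions counted (-0.72 to 0.18), an interval that includes equality. It was -2.66 with only positions of at least 3 cDNAs, which leaves 3 cDNAs in chromatin. In chromatin over cytoplasm Lin28a was called lower at -2.97 (-3.76 to -2.28), 0.127 times the cytoplasm share. It was 1 of 2 genes compared, where 16.8% of 852 loci were called lower, 22.3% higher and 39.1% in either direction, and the median locus stood at 0.01. Dnmt3b stood at 1.20 (0.66 to 1.75) there and was not called. In nucleoplasm over cytoplasm Dnmt3b was called higher at 2.14 (1.67 to 2.63), where 22.6% of 1248 loci were, and Lin28a lower at -2.29 (-2.88 to -1.75), where 16.6% were. In either direction 39.2% of loci were called, and the median locus stood at 0.37. The locus around Lin28a, with 83 and 217 cDNAs, stood nearer to equality than the interval, with 32 and 209. Both Lin28a calls were lost with only positions of at least 3 cDNAs, where the ratios were -2.26 and -2.33. That filter leaves 4 cDNAs in chromatin and 3 in nucleoplasm, at 1 position each, against 24 in cytoplasm, so these values are below the minimum for a comparison. The Dnmt3b call held at 1.68 with positions counted and at 2.14 without the highest position. It also held at 1.82 with the mitochondrial genome and the 10 highest loci left out. With only positions of at least 3 cDNAs the ratio was 2.99. That value rests on 15 cDNAs in nucleoplasm and 3 in cytoplasm, likewise below the minimum for a comparison.

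**Figure D5:**
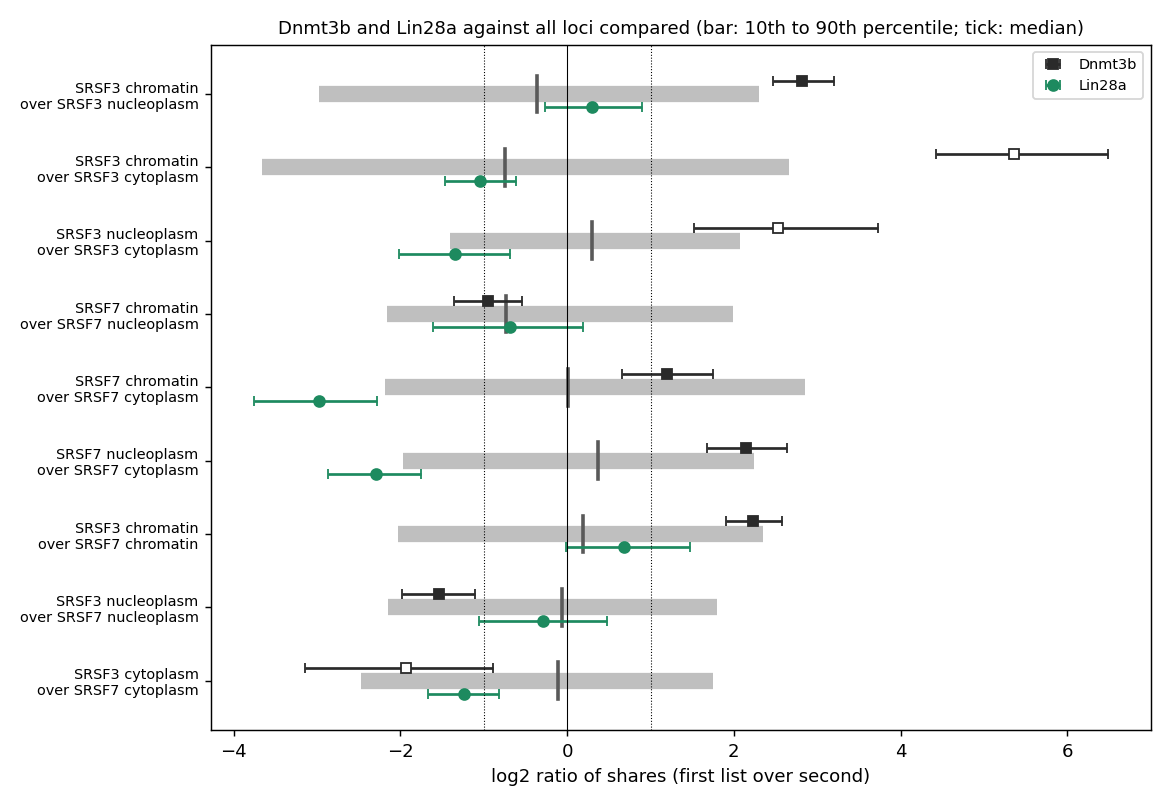
log2 ratios of shares for Dnmt3b (squares) and Lin28a (circles) in the 9 comparisons, with 95% intervals of counting error; open symbols have fewer than 10 cDNAs in 1 list. Grey bars run from the 10th to the 90th percentile of all loci compared, ticks mark the median locus and dotted lines mark 2-fold. Dnmt3b at 2.82 lies beyond the grey bar in SRSF3 chromatin over nucleoplasm, and Lin28a at -2.97 lies beyond it in SRSF7 chromatin over cytoplasm. Symbols are gene intervals, whereas grey bars are of joined loci.

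SRSF3 was then set over SRSF7 within each fraction. The track names of the SRSF7 lists carry a term for regions taken as one that those of the SRSF3 lists lack, and the part of this in the ratios was not tested. In chromatin Dnmt3b held 143 cDNAs per 100000 in SRSF3 and 30.6 in SRSF7, a log2 ratio of 2.23 (1.90 to 2.58), and was called higher, where 21.4% of 1358 loci were and 38.7% were called in either direction. Counted by positions its ratio was 0.82 (0.46 to 1.21) and the call was lost. Lin28a stood at 0.69 in chromatin (-0.01 to 1.47), not called. In nucleoplasm Dnmt3b held 20.3 per 100000 in SRSF3 and 58.9 in SRSF7, a log2 ratio of -1.54 (-1.98 to -1.11), and was called lower, where 18.3% of 1093 loci were. That call was lost with the mitochondrial genome and the 10 highest loci left out, at -1.24, and the direction turned to 0.26 with only positions of at least 3 cDNAs, which leaves 27 in SRSF3 and 15 in SRSF7. Lin28a stood at -0.29 in nucleoplasm (-1.06 to 0.47). In cytoplasm Lin28a held 24.1 per 100000 in SRSF3 and 56.9 in SRSF7, a log2 ratio of -1.24 (-1.67 to -0.82) that was not called, where 34.6% of 866 loci were called in either direction. It was -0.57 with only positions of at least 3 cDNAs. Dnmt3b, with 9 cDNAs in SRSF3 cytoplasm, stood at -1.93 (-3.14 to -0.89).

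Whether the same sites were listed in several fractions was counted within each gene, as positions within 5 nt of a position of another list. At Dnmt3b, 31 of 38 SRSF3 nucleoplasm positions lay near an SRSF3 chromatin position, or 81.6% (65.7 to 92.3), and so did all 7 SRSF3 cytoplasm positions. SRSF3 chromatin lists 1295 positions there, so a near partner is easily found. In SRSF7, 20.5% of 132 nucleoplasm positions (13.9 to 28.3) lay near a chromatin position at Dnmt3b. Of the 45 SRSF7 cytoplasm positions, 8.89% (2.48 to 21.2) lay near a chromatin position and 22.2% (11.2 to 37.1) near a nucleoplasm position. At Lin28a, 41.9% of 43 SRSF3 cytoplasm positions (27.0 to 57.9) lay near a chromatin position and 16.3% (6.81 to 30.7) near a nucleoplasm position. Of 21 SRSF3 nucleoplasm positions 14.3% (3.05 to 36.3) had a chromatin position near. Of 158 SRSF7 cytoplasm positions at Lin28a, 5.70% (2.64 to 10.5) lay near a chromatin position and 17.7% (12.1 to 24.6) near a nucleoplasm position. Of 24 SRSF7 nucleoplasm positions 4.17% (0.105 to 21.1) lay near a chromatin position and 66.7% (44.7 to 84.4) near a cytoplasm position. Of 13 SRSF7 chromatin positions 53.8% (25.1 to 80.8) lay near a cytoplasm position. The value of a pair thus depended on which list was taken as the start, and the shorter list had the higher share.

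Positions of the 2 proteins also met within a fraction. At Lin28a in cytoplasm, 38 of 43 SRSF3 positions lay near an SRSF7 position, or 88.4% (74.9 to 96.1), 17 of them at the same nucleotide. In the other direction 23.4% of the 158 SRSF7 positions (17.1 to 30.8) lay near an SRSF3 position. In nucleoplasm, 16.7% of the 24 SRSF7 positions at Lin28a (4.74 to 37.4) lay near an SRSF3 position, and 52.4% of the 21 SRSF3 positions (29.8 to 74.3) near an SRSF7 position. At Dnmt3b in chromatin, 57.8% of 64 SRSF7 positions (44.8 to 70.1) lay near an SRSF3 position, 24 of them at the same nucleotide. In the other direction the value was 4.71% of 1295 SRSF3 positions (3.62 to 6.01). In nucleoplasm 8.33% of 132 SRSF7 positions at Dnmt3b (4.23 to 14.4) lay near an SRSF3 position, and in cytoplasm 6.67% of 45 (1.40 to 18.3). In the other direction 34.2% of 38 SRSF3 positions (19.6 to 51.4) lay near an SRSF7 position in nucleoplasm, and 4 of 7 in cytoplasm. These shares move with the number of positions each list holds, and no comparison value was computed for them.

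Loci with the most similar pattern over the 6 lists were sought by the Euclidean distance of log2 shares centred over the lists. The search took loci with at least 20 cDNAs in every list, 333 for Dnmt3b and 332 for Lin28a. Neither gene meets this minimum itself, since Dnmt3b has 9 cDNAs in SRSF3 cytoplasm and Lin28a 18 in SRSF7 chromatin. Loci with as few cDNAs in a list were therefore left out, which bears on the closest loci and on the median distance. The closest to Dnmt3b was the plus strand of chr3:88810396-88886317, at a distance of 0.647 where the median locus stood at 5.11. That locus held 402, 73.2 and 14.8 cDNAs per 100000 in SRSF3 chromatin, nucleoplasm and cytoplasm and 153, 198 and 46.6 in those of SRSF7. The next was the minus strand of chr10:116775328-116814711, at 1.41. For Lin28a the closest were the plus strand of chr11:75546433-75581411, at 1.30, and the minus strand of chr9:115146910-115219945, at 1.46, where the median locus stood at 3.49. Pou5f1 and Sox2 are not listed in every list and could not be matched.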

How the data were processed

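Per the labels, 21 iCLIP samples form 6 groups. The authors deposited 1 list per group, in which the replicates are pooled. Each deposited entry is a signed whole number at a 1 nt position, a cDNA count per the file headers, with the sign read here as the strand; at the 4 genes every sign was that of the gene. Per the file headers, the lists hold positions that passed a false discovery rate (FDR) of 0.05, with 15 nt as neighbourhood and 100 permutations, on build mm9. All 6 headers describe regions as taken separately, but the track names of the 3 SRSF7 lists also carry a term for regions taken as one. Whether peak calling differed between the proteins is not settled by the headers. The sources used here do not give the aligner, the removal of duplicates or the caller's version.

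Computed here were counts in the gene intervals, shares of each list with exact 95% intervals, ratios of shares with conditional exact binomial intervals, profiles, clusters joined at 30 nt and positions shared within 5 nt. Background loci were joined over all 6 lists at 10000 nt. The comparison of loci was first checked on simulated counts per locus with known folds. The other steps were not checked on simulated data. The named clusters are at most 5 per gene with the highest mean share over lists holding at least 20 cDNAs, and the named positions are the highest of a list. The genes and the lists of alternatives were chosen with earlier results of these data known. Other pluripotency genes were not analysed here, because no table placed them on mm9. Tools were scipy 1.17.1, matplotlib 3.10.9, pandas 2.3.3 and numpy 2.4.6 under Python 3.11.15.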

Additional observations from a re-analysis of the deposited data

Results flagged for a closer look

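The ratios of Dnmt3b had opposite signs in the 2 proteins. Chromatin over nucleoplasm gave a log2 ratio of 2.82 in SRSF3 and -0.95 in SRSF7. The SRSF7 value was not called, lay near the median locus of -0.73, and was -0.27 (-0.72 to 0.18) with positions counted. Set the other way, SRSF3 over SRSF7 gave 2.23 in chromatin, against -1.54 in nucleoplasm and -1.93 in cytoplasm. The chromatin value lost its call at 0.82 with positions counted. The nucleoplasm value lost its call at -1.24 with the mitochondrial genome and the 10 highest loci left out, and turned to 0.26 with only positions of at least 3 cDNAs. The cytoplasm value rests on 9 SRSF3 cDNAs, below the minimum for a comparison. The difference between these ratios was not tested, since each group is 1 pooled list. SRSF3 chromatin held 1768665 listed cDNAs, against 248498 to 367298 in the other lists, and the part of depth in the result was not tested.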

How the results depend on the processing

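No paired analysis was possible because the replicates of each group were pooled in 1 list, and for the same reason no replicate could be left out. The 15 compared ratios kept direction and side of the threshold in all 15 cases without the highest position of each gene, in 11 after leaving out the mitochondrial genome and the 10 highest loci, in 9 with positions counted and in 9 with positions of at least 3 cDNAs. The cause of the exceptions was not tested. With positions of at least 3 cDNAs most of the ratios fell below the minimum for a comparison. A ratio that was not called then stays uncalled more easily, because its interval widens, so the count for that setting is no measure of stability. With positions counted, Lin28a turned to -0.36 in SRSF3 chromatin over nucleoplasm, to -0.19 in SRSF3 over SRSF7 chromatin and to 0.064 in nucleoplasm. It passed the threshold in SRSF3 chromatin over cytoplasm (-2.29) and nucleoplasm over cytoplasm (-1.93), and Dnmt3b lost its call in SRSF3 over SRSF7 chromatin (0.82). With the mitochondrial genome and the 10 highest loci left out, Lin28a turned to -0.12 in SRSF3 chromatin over nucleoplasm and to 0.0025 in SRSF3 over SRSF7 nucleoplasm, and passed the threshold at -1.75 in SRSF3 chromatin over cytoplasm. Dnmt3b lost its call in SRSF3 over SRSF7 nucleoplasm (-1.24). With at least 3 cDNAs per position, Lin28a turned to 0.13 in SRSF3 chromatin over cytoplasm, 0.073 in SRSF7 chromatin over nucleoplasm and 0.15 in SRSF3 over SRSF7 nucleoplasm. Its SRSF7 calls against cytoplasm were lost at -2.26 (chromatin) and -2.33 (nucleoplasm), and Dnmt3b turned to 0.26 in SRSF3 over SRSF7 nucleoplasm. That filter also moved the share of cDNAs in the 3′-most of 5 parts, at Lin28a to 33.3% in SRSF3 chromatin and 100% in SRSF7 cytoplasm, and at Dnmt3b to 0% in SRSF7 nucleoplasm. The 33.3% in SRSF3 chromatin rests on 69 cDNAs at 18 positions. The other moved shares rest on few cDNAs, since the filter leaves 3 to 24 at Lin28a outside SRSF3 chromatin and 3 to 15 at Dnmt3b in the SRSF7 lists. Shares in the 3′-most part were not computed below 10 cDNAs.

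At Lin28a, sharing at the same nucleotide (0 nt) fell to 18.6% for SRSF3 cytoplasm with chromatin, 2.33% with nucleoplasm, 0% for SRSF7 nucleoplasm with chromatin, 1.27% for SRSF7 cytoplasm with chromatin, 3.16% with nucleoplasm and 10.8% with SRSF3 cytoplasm. At Dnmt3b it fell to 36.8% for SRSF3 nucleoplasm with chromatin, 9.09% for SRSF7 nucleoplasm with chromatin, 4.44% for SRSF7 cytoplasm with nucleoplasm and 37.5% for SRSF7 with SRSF3 chromatin. Within 15 nt, Lin28a gave 37.2% for SRSF3 and 30.4% for SRSF7 cytoplasm with nucleoplasm. Dnmt3b gave 100% for SRSF3 nucleoplasm with chromatin, 26.7% for SRSF7 cytoplasm with chromatin, and for SRSF7 with SRSF3 71.9% in chromatin and 15.9% in nucleoplasm. Clusters joined at 10 nt numbered 15 at Pou5f1 and 47 at Lin28a, and 1 at Dnmt3b was in all SRSF7 fractions. Joined at 100 nt they numbered 20 at Lin28a and 83 at Dnmt3b, with 2 at either gene in all SRSF3 fractions and 7 at Dnmt3b in all SRSF7 fractions. With at least 200 cDNAs per locus fewer loci were compared, and the share called in either direction was higher in all 9 comparisons, at 39.5% to 64.2% against 25.2% to 58.8%. In SRSF3, chromatin over nucleoplasm then had 452 loci beyond 2-fold, chromatin over cytoplasm 361 and nucleoplasm over cytoplasm 109. In SRSF7 these were 160, 185 and 244, and SRSF3 over SRSF7 had 152 in nucleoplasm and 151 in cytoplasm.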
